A study of Mus musculus with 20 samples.

Results

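The genes described here encode regulators of G-protein signalling (RGS proteins): Rgs2, Rgs4, Rgs7, Rgs8, Rgs10, Rgs12, Rgs16, Rgs17, Rgs19 and Rgs20. They were chosen by name as a gene family and are 10 of the 57126 genes counted. All 10 were among the 18648 genes that passed the filter on low counts. RNA from whole hippocampus of 20 adrenalectomized male C57BL/6 mice was sequenced, with 5 mice in each of 4 groups: GRA knockin given dexamethasone (Dex), GRA knockin given PBS, wild-type given Dex and wild-type given PBS. The knockin mice were homozygous for an exon 2 of Nr3c1, the glucocorticoid receptor gene, that keeps the start codon of the full-length receptor GRA and has the start codons of the shorter forms mutated. No promoter or Cre that would limit the allele to 1 cell type is named. All mice had lost their adrenal glands at about 2.5 months of age, and 2 weeks later they received Dex, a synthetic glucocorticoid, at 1 mg per kg or the PBS vehicle by intraperitoneal injection. Tissue was taken 6 h after the injection, so the comparisons ask which transcripts 1 dose moved in mice without adrenal hormone, and whether the receptor allele altered that.

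RGS proteins bind active, GTP-bound G alpha subunits and speed the hydrolysis of GTP, which ends the signal of a G-protein-coupled receptor sooner. In neurons they shorten the responses to transmitters that act through Gi, Go and Gq. By sequence, Rgs2, Rgs4, Rgs8 and Rgs16 belong to the R4 subfamily of small proteins, and Rgs7 belongs to the R7 subfamily, whose members pair with the G beta subunit Gnb5. Rgs10 and Rgs12 belong to the R12 subfamily, and Rgs17, Rgs19 and Rgs20 to the RZ subfamily, which carries a cysteine string near its amino terminus.

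Libraries held 11493014 to 48267708 read pairs assigned to genes. The first principal component held 26.2% of the variance. Nr3c1 averaged 111 ± 8.69 CPM (read pairs relative to library size, scaled between libraries; SD, n = 5 for every group) in knockin Dex and 163 ± 24.1 CPM in knockin PBS, 98.6 ± 8.27 CPM in wild-type Dex and 136 ± 21.8 CPM in wild-type PBS libraries; counts per gene do not distinguish the mutated from the intact start codons. Hippocampal markers were present in all 20 libraries, with the dentate granule gene Prox1 at 134 to 173 CPM, the CA1 gene Fibcd1 at 133 to 203 CPM and the CA2 and CA3 gene Grik4 at 49.1 to 71.3 CPM. Genes of neighbouring regions were present at lower level, with the thalamic gene Prkcd at 18.2 to 42.1 CPM and the striatal gene Drd2 at 1.53 to 3.07 CPM. Wild-type PBS replicates 1 and 2 held 125 to 224 CPM of liver transcripts against 4.42 to 55.7 CPM in the others, and wild-type PBS replicate 4 and knockin Dex replicate 2 held 1261 to 1655 CPM of Ttr, a choroid plexus transcript, against 17.4 to 541 CPM.

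All 10 genes were detected in every library. On the scale of CPM per kilobase of exon, which allows genes to be set side by side, Rgs4 was the highest at 51.3 ± 5.24 (SD over the 20 libraries). Rgs7 followed at 29.8 ± 1.72. Rgs10 at 15.2 ± 1.31 and Rgs8 at 14.2 ± 1.40 differed by less than their SD, as did Rgs2 at 9.36 ± 0.748 and Rgs17 at 9.20 ± 0.582. The next 3, Rgs19 at 7.69 ± 0.649, Rgs20 at 6.37 ± 2.48 and Rgs12 at 6.26 ± 0.525 per kilobase, overlapped in their spread. Rgs16 was the lowest at 2.43 ± 0.421, and its counts ran from 55 to 268 read pairs per library. The SD of Rgs20 was 38.9% of its mean, against 5.77% to 17.4% for the other 9, and its levels split by treatment. Summed over the 10 genes, the level was 500.7 to 599.8 CPM per library.

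**Figure D1:**
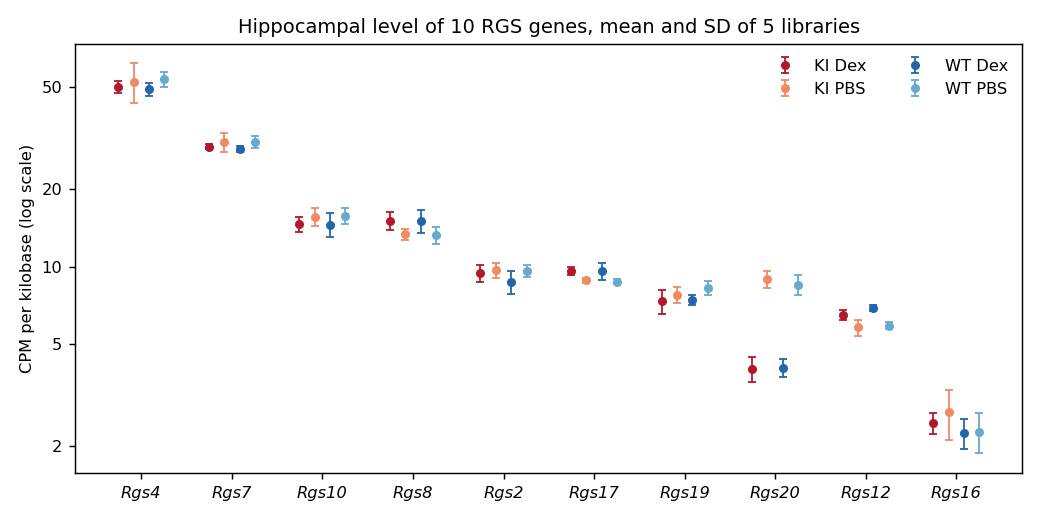
Level of each RGS gene in CPM per kilobase of exon, on a log axis, by group. Points are means and bars SD of 5 libraries. Rgs4 is the highest gene in all groups, and Rgs20 is the gene whose Dex groups (3.99 and 4.03) stand clear of its PBS groups (8.93 and 8.51).

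The largest change among the 10 genes was in Rgs20, which fell more than 2-fold with Dex in both genotypes. Rgs20, also known as RGSZ1, is a regulator that acts with preference on the alpha subunit Gz. Rgs12, Rgs17 and Rgs8 rose by 9.43% to 14.4% in the mean response over both genotypes, and the other 6 genes did not pass the test. In knockin mice 2 of the 10 genes were called at adjusted p below 0.05 (edgeR quasi-likelihood test, adjusted over all genes tested), 1 higher and 1 lower. Of all genes 10.0% were called there, 5.28% higher and 4.71% lower. In wild-type mice 3 of 10 were called, 2 higher and 1 lower, where 9.21% of all genes were called, 5.27% higher and 3.94% lower. In the mean response 4 of 10 were called, 3 higher and 1 lower, where 18.2% of all genes were called, 9.79% higher and 8.41% lower. The Dex and PBS libraries did not overlap for 3 of the genes in knockin mice (8.68% of all genes) and for 2 in wild-type mice (8.22% of all genes). The median log2 fold change of the 10 genes was -0.067 in knockin, -0.099 in wild-type and -0.083 in the mean response, against 0.0015, -0.00051 and -0.00039 over all genes in the same order of comparisons.

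**Figure D2:**
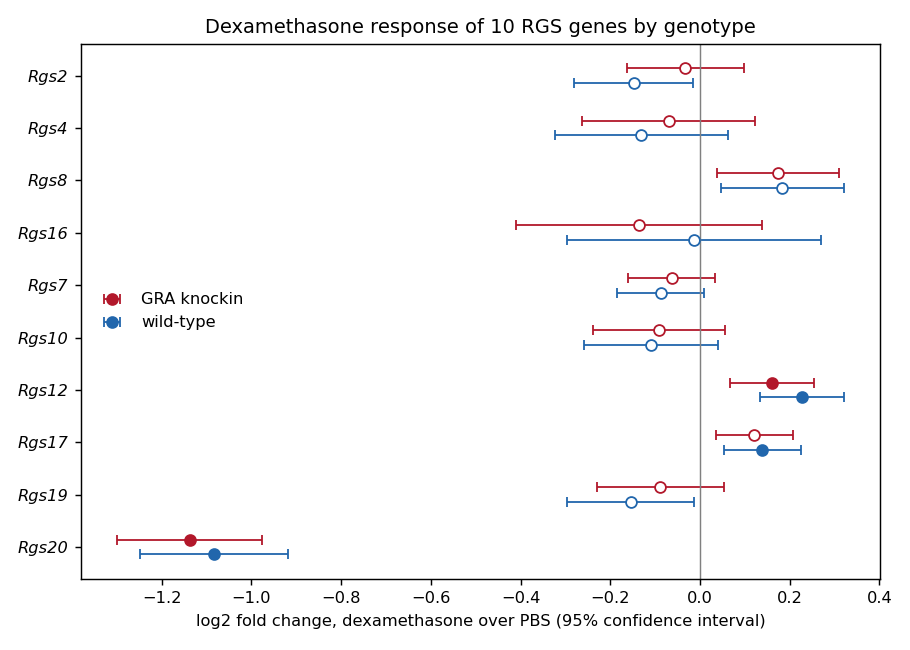
Log2 fold change of Dex over PBS for each RGS gene in knockin (red, upper) and wild-type (blue, lower) mice, with 95% confidence intervals. Filled points passed the test. Rgs20 lies at -1.14 and -1.08, and every other estimate lies between -0.15 and 0.23.

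Rgs20 (ENSMUSG00000002459.18, mm39 chromosome 1, 4979799 to 5140508, minus strand, 2514 bases of exon) had 11.5, 9.04, 8.99, 10.8 and 9.85 CPM in knockin Dex libraries, against 20.1, 22.3, 24.8, 22.0 and 23.0 CPM in knockin PBS libraries. In wild-type Dex libraries it had 8.91, 10.5, 11.1, 10.1 and 10.1 CPM, against 20.6, 21.8, 24.7, 19.9 and 20.0 CPM in wild-type PBS libraries. Every Dex library lay below every PBS library, across genotypes as well as within them. The mean was 10.0 ± 1.11 CPM in knockin Dex against 22.4 ± 1.72 CPM in knockin PBS (SD, n = 5 each), a 2.20-fold lower level. It was 10.1 ± 0.796 CPM in wild-type Dex against 21.4 ± 1.98 CPM in wild-type PBS, a 2.12-fold lower level. By edgeR's quasi-likelihood test the log2 fold change was -1.14 in knockin mice (SE 0.08, adjusted p = 7.72e-11) and -1.08 in wild-type mice (SE 0.08, adjusted p = 5.4e-10). By p-value Rgs20 ranked 15 of 18648 genes in knockin and 11 in wild-type mice. A fold change as low or lower was found for 80 genes in knockin mice (0.429% of those tested) and for 110 in wild-type mice (0.590%). The knockin response differed from the wild-type response by -0.05 log2 (95% interval -0.29 to 0.18, edgeR adjusted p = 1), so a difference of up to 0.29 log2 lies within the interval. Leaving out any single library kept the call, with the knockin response between -1.20 and -1.10 and the wild-type response between -1.13 and -1.03. In bulk tissue, fewer cells that hold a transcript and less of it per cell cannot be told apart.

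The counting ignored strand, and Rgs20 shares 127 exon bases with Atp6v1h, a subunit of the vacuolar proton pump on the opposite strand. Atp6v1h averaged 133 ± 3.66 CPM in knockin Dex and 125 ± 4.25 CPM in knockin PBS, and 132 ± 6.83 CPM in wild-type Dex and 129 ± 4.45 CPM in wild-type PBS libraries. Its mean response was 0.06 log2 (SE 0.03, edgeR adjusted p = 0.132), which did not pass. Gnaz, which encodes the Gz alpha subunit, averaged 71.3 ± 3.41 CPM in knockin Dex and 75.0 ± 6.66 CPM in knockin PBS, and 74.4 ± 2.97 CPM in wild-type Dex and 73.8 ± 5.50 CPM in wild-type PBS libraries. The mean Gnaz response was -0.032 log2 (SE 0.04, edgeR adjusted p = 0.652), also short of the threshold.

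**Figure D3:**
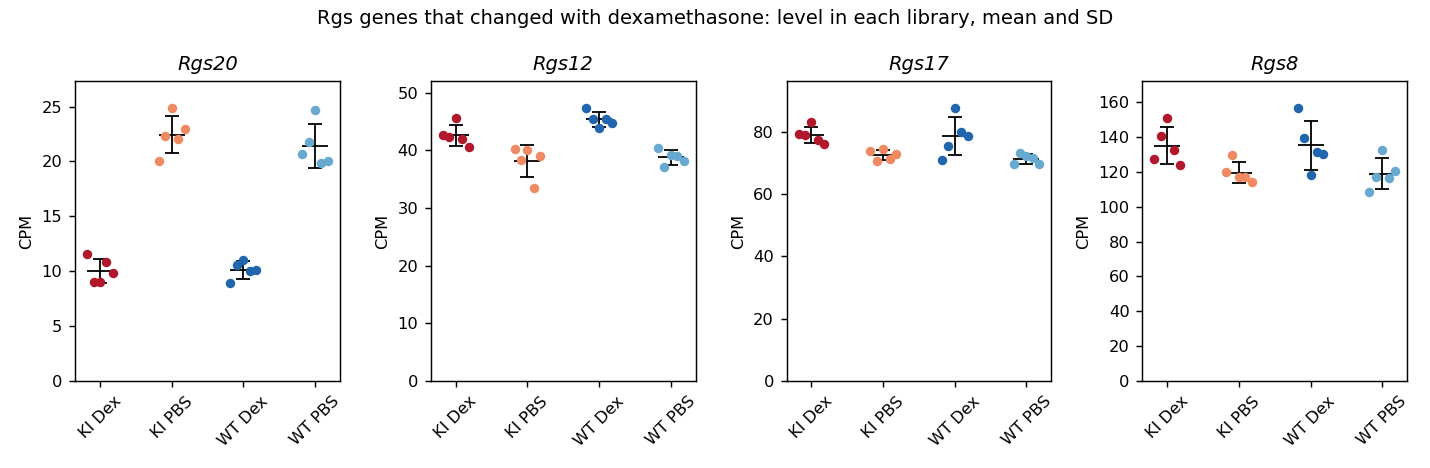
CPM of Rgs20, Rgs12, Rgs17 and Rgs8 in each library (points), with the group mean and SD (lines), n = 5. For Rgs20 the Dex libraries reach at most 11.5 CPM and the PBS libraries start at 19.9 CPM; for Rgs8 the Dex and PBS libraries overlap.

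Rgs12 is a large multidomain member of the R12 subfamily, with a PDZ domain, Ras-binding domains and a GoLoco motif that holds Gi alpha in its GDP-bound form. The gene (ENSMUSG00000029101.17, mm39 chromosome 5, 35106789 to 35196988, plus strand) had 42.6, 42.4, 45.6, 42.0 and 40.6 CPM in knockin Dex libraries, against 40.2, 38.3, 40.0, 33.5 and 39.0 CPM in knockin PBS libraries. In wild-type libraries it had 47.3, 45.4, 43.8, 45.5 and 44.7 CPM under Dex, against 40.4, 37.1, 39.2, 39.0 and 38.2 CPM under PBS. In each genotype the lowest Dex library lay above the highest PBS library. Rgs12 rose by 0.16 log2 in knockin mice (SE 0.05, edgeR adjusted p = 0.0215) and by 0.23 log2 in wild-type mice (SE 0.05, adjusted p = 0.00112). The 2 responses differed by -0.07 log2 (95% interval -0.20 to 0.07, adjusted p = 1). In knockin mice the call was lost without knockin PBS replicate 4 (0.11 log2, adjusted p = 0.0816), without knockin Dex replicate 3 (0.14 log2, adjusted p = 0.0814), and in a fit of the knockin libraries alone (0.15 log2, adjusted p = 0.0853).

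Rgs17, known as RGSZ2, belongs with Rgs20 to the RZ subfamily and moved the other way. The gene (ENSMUSG00000019775.18, mm39 chromosome 10, 5775663 to 5872400, minus strand) had 79.4, 78.8, 83.2, 77.3 and 76.1 CPM in knockin Dex libraries, against 73.8, 70.7, 74.4, 71.2 and 72.8 CPM in knockin PBS libraries. In wild-type libraries it had 70.9, 75.5, 87.5, 79.9 and 78.7 CPM under Dex, against 69.7, 73.3, 72.3, 71.7 and 69.8 CPM under PBS. The groups did not overlap in knockin mice, and in wild-type mice Dex replicate 1 lay among the PBS libraries. Averaged over both genotypes Rgs17 rose by 0.13 log2 (SE 0.03, edgeR adjusted p = 0.00193). Within wild-type mice it rose by 0.14 log2 (SE 0.04, adjusted p = 0.0342), and the knockin response of 0.12 log2 (SE 0.04, adjusted p = 0.065) did not pass. The knockin response passed in a fit of the knockin libraries alone (adjusted p = 0.0497). The wild-type call was lost without any one of PBS replicates 1, 3, 4 and 5 or Dex replicates 3, 4 and 5, with adjusted p between 0.0524 and 0.149, and with no filter on low counts (adjusted p = 0.082). It was also lost in a fit of the wild-type libraries alone (adjusted p = 0.0851) and without the libraries high in liver transcripts (adjusted p = 0.0888) or in Ttr (adjusted p = 0.0692).

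Rgs8 is a small R4 regulator that acts on Gi and Go alpha subunits. The gene (ENSMUSG00000042671.13, mm39 chromosome 1, 153528771 to 153576069, plus strand) had 127, 141, 151, 132 and 124 CPM in knockin Dex libraries, against 120, 130, 117, 117 and 114 CPM in knockin PBS libraries. In wild-type libraries it had 156, 140, 118, 131 and 130 CPM under Dex, against 108, 117, 132, 116 and 120 CPM under PBS. The groups overlapped in both genotypes. Averaged over both, Rgs8 rose by 0.18 log2 (SE 0.05, edgeR adjusted p = 0.00834). Neither genotype passed alone, at 0.17 log2 in knockin mice (SE 0.07, adjusted p = 0.111) and 0.18 log2 in wild-type mice (SE 0.07, adjusted p = 0.0946). The wild-type response passed without PBS replicate 3 (0.22 log2, adjusted p = 0.0485) or without Dex replicate 3 (0.23 log2, adjusted p = 0.0202). On the opposite strand, gene models share 70 exon bases with Rgs8, 467 with Rgs12 and 236 of 2339 with Rgs16, and the levels of these models were at or near 0 CPM. The effect of these overlaps, and of that between Rgs20 and Atp6v1h, on the counts was not tested.

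Promoter windows of 300 bases, from 250 before to 50 after each RefSeq start site (GRCm38.p6), matched 9 of the 10 genes, with 14 windows in all; Rgs20 was not among them. The letters AGAACA, the half-site of the glucocorticoid receptor's element, were searched on both strands and are found in 19.0% of all 32841 such windows. They were in 1 of 3 windows of Rgs8, 1 of 2 of Rgs12 and 1 of 3 of Rgs19, and in no window of the other 6 genes matched. The spaced palindrome, GNACA and TGTNC with 3 bases between them, which is in 0.475% of all windows, was in none of the 14. The cAMP element half-site TGACG, in 20.8% of all windows, was in 1 window each of Rgs2, Rgs4, Rgs8 and Rgs12, and its palindrome TGACGTCA, in 1.79% of all windows, in none of the 14. Windows of the 3 genes called higher in the mean response are shown. They are the Rgs8 and Rgs12 windows that hold the half-site, which is in capitals and reads TGTTCT on the printed strand, and the Rgs17 window, which has no match. A match is a description of these letters and not evidence of a bound site.
Rgs8, chr1:153652787-153653086, plus strand: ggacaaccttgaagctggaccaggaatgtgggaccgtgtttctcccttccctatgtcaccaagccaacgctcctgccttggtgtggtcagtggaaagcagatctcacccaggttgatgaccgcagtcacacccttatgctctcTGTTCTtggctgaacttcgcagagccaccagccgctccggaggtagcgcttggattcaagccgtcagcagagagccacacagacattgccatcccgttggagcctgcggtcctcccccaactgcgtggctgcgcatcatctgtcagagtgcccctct
Rgs12, second start site, chr5:34998828-34999127, plus strand: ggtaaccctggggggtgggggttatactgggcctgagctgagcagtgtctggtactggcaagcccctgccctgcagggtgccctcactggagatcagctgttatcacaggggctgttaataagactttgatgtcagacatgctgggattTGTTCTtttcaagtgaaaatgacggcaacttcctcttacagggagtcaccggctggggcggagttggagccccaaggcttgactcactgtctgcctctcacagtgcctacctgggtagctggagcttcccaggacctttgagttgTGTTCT
Rgs17, chr10:5922351-5922650, minus strand: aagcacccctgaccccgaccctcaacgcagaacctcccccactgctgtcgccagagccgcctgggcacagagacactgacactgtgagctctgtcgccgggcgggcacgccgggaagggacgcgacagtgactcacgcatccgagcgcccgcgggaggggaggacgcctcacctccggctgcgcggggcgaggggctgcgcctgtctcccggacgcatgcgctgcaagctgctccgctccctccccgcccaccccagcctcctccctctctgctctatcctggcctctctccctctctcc

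Among the other R4 regulators, Rgs2, which has a preference for Gq alpha, had a lowest, median and highest level of 27.3, 31.3 and 33.3 CPM in knockin Dex against 29.9, 30.7 and 35.0 CPM in knockin PBS libraries. In wild-type libraries it had 24.5, 28.1 and 32.4 CPM under Dex against 29.1, 31.2 and 33.4 CPM under PBS. The groups overlapped in both genotypes, and the log2 fold change was -0.033 in knockin (edgeR adjusted p = 0.836) and -0.15 in wild-type mice (adjusted p = 0.18). The wild-type response of Rgs2 passed without wild-type Dex replicate 3 (-0.21, adjusted p = 0.0367). Rgs4, an abundant neuronal regulator of Gi, Go and Gq signalling, had 140, 145 and 158 CPM in knockin Dex against 114, 150 and 183 CPM in knockin PBS libraries. Its wild-type levels were 135, 146 and 156 CPM under Dex against 147, 155 and 175 CPM under PBS, and its log2 fold change was -0.070 in knockin (adjusted p = 0.747) and -0.13 in wild-type mice (adjusted p = 0.483). Rgs16, which acts on Gi and Gq alpha, had 4.88, 5.96 and 6.28 CPM in knockin Dex against 4.77, 5.94 and 8.61 CPM in knockin PBS libraries. It had 4.22, 5.61 and 5.90 CPM in wild-type Dex against 4.34, 5.36 and 6.65 CPM in wild-type PBS libraries, and its mean response of -0.074 log2 (95% interval -0.27 to 0.12) was the least precise of the 10.

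Rgs7, which works as a complex with Gnb5, had 72.0, 73.3 and 75.8 CPM in knockin Dex against 68.1, 77.2 and 84.5 CPM in knockin PBS libraries. In wild-type libraries it had 70.2, 72.9 and 74.5 CPM under Dex against 72.3, 76.4 and 83.5 CPM under PBS. The groups overlapped, and its mean response was -0.075 log2 (SE 0.03, edgeR adjusted p = 0.124). Rgs10, a small R12 regulator of Gi alpha known for its level in microglia, had 15.2, 16.7 and 18.1 CPM in knockin Dex against 16.6, 17.0 and 19.8 CPM in knockin PBS libraries. It had 15.4, 15.6 and 19.6 CPM in wild-type Dex against 16.6, 18.0 and 20.0 CPM in wild-type PBS libraries, with a mean response of -0.10 log2 (SE 0.05, adjusted p = 0.197). Rgs19, the RZ member also called GAIP, had 13.6, 15.8 and 17.5 CPM in knockin Dex against 15.1, 16.2 and 18.2 CPM in knockin PBS libraries. In wild-type libraries it had 15.1, 15.8 and 16.8 CPM under Dex against 16.3, 17.8 and 18.8 CPM under PBS, with a mean response of -0.12 log2 (SE 0.05, adjusted p = 0.087). For these 6 genes the estimates were negative in both genotypes and none passed, but the sign turned when single libraries were left out for Rgs2 in knockin mice and for Rgs16 in both genotypes.

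Knockin PBS replicate 4 bore on several of these values. It was the lowest of its group for Rgs4 (114 CPM), Rgs7 (68.1 CPM), Rgs10 (16.6 CPM), Rgs12 (33.5 CPM) and Rgs19 (15.1 CPM), and the highest for Rgs2 (35.0 CPM) and Rgs16 (8.61 CPM). Without it, 7 of the 10 genes passed in the mean response, against 4 with all 20 libraries. Rgs4 was added at -0.15 log2 (edgeR adjusted p = 0.015), Rgs7 at -0.097 (adjusted p = 0.0223) and Rgs19 at -0.14 (adjusted p = 0.047). With all libraries the mean response of Rgs4 was -0.10 log2 (SE 0.065, edgeR adjusted p = 0.342). Over the whole table, 3393 genes (18.2%) were called in the mean response with all libraries. That count ran from 2966 to 3480 when any single library was left out. Rgs19 also passed without knockin Dex replicate 2 (-0.14, adjusted p = 0.0456) and without the libraries high in Ttr (-0.15, adjusted p = 0.0429). The summed level of 7 neutrophil markers was 14.1 CPM in knockin PBS replicate 4, the highest of the 20 libraries. That of 8 dentate granule markers was also the highest of the 20, at 681 CPM, and that of 12 thalamic and habenular markers the lowest, at 148 CPM. The part of these markers in the values was not tested.

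**Figure D4:**
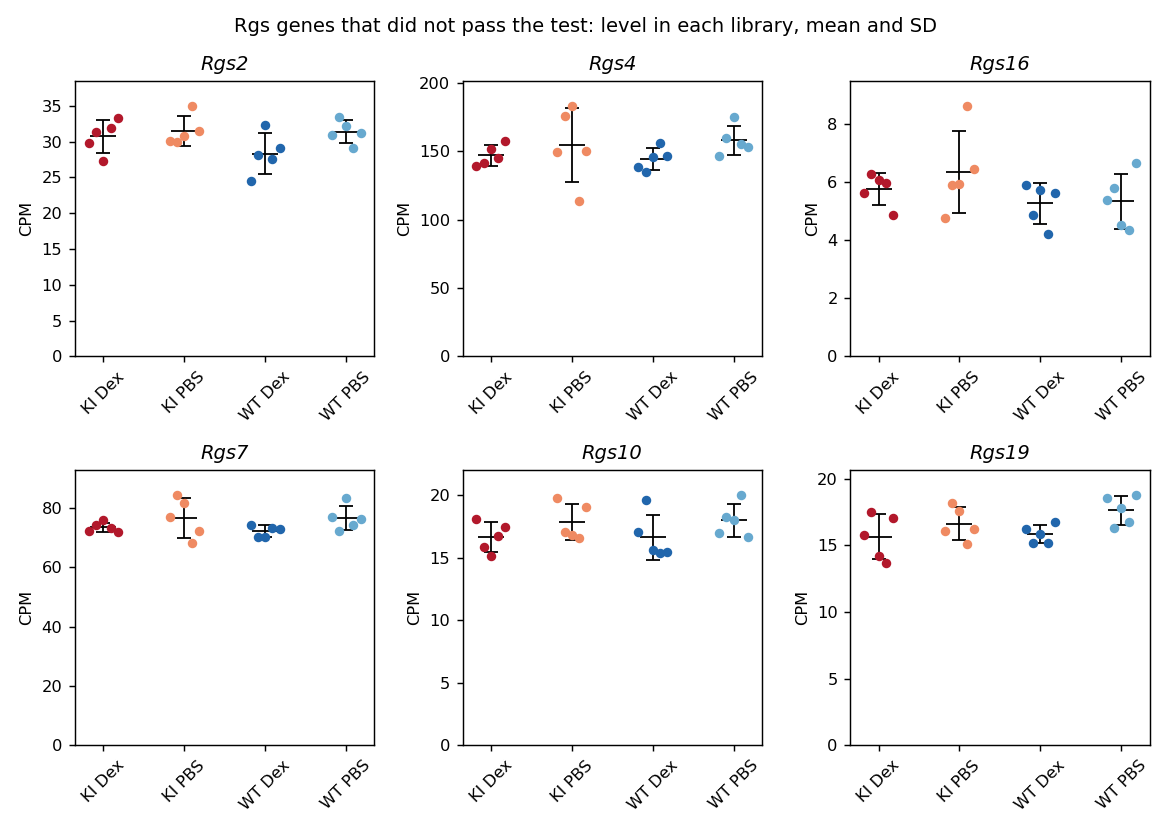
CPM of the 6 RGS genes that did not pass the test, in each library (points), with the group mean and SD (lines), n = 5. Dex and PBS libraries overlap for each gene in both genotypes, and knockin PBS spans 114 to 183 CPM for Rgs4.

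None of the 10 genes differed between knockin and wild-type mice by edgeR's test, under PBS or under Dex, and none differed in its Dex response. Across all genes 0% were called in each of these 3 comparisons, with 673, 828 and 527 genes at unadjusted p below 0.05 and 0 genes called by DESeq2 or limma-voom. Of the 10 genes, 0 were at unadjusted p below 0.05 in any of the 3, and 0 were called by DESeq2 or limma-voom. No gene's knockin and wild-type libraries were free of overlap under PBS (0.670% of all genes) or under Dex (0.788%). Under PBS the largest difference was that of Rgs16, at 6.34 ± 1.41 CPM in knockin and 5.33 ± 0.949 CPM in wild-type mice (0.23 log2, edgeR adjusted p = 1). Under Dex it was that of Rgs2, at 30.7 ± 2.30 CPM in knockin and 28.3 ± 2.83 CPM in wild-type mice (0.11 log2, edgeR adjusted p = 1). Rgs12 under Dex averaged 42.6 ± 1.83 CPM in knockin and 45.4 ± 1.27 CPM in wild-type mice (-0.09 log2, 95% interval -0.18 to 0.00, edgeR adjusted p = 1). Rgs20 differed between genotypes by 0.06 log2 under PBS (95% interval -0.09 to 0.21) and by 0.00 under Dex (95% interval -0.17 to 0.18). The Dex responses of Rgs2 and Rgs16 differed between genotypes by 0.11 log2 (95% interval -0.07 to 0.30) and -0.12 log2 (95% interval -0.52 to 0.27).

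Elsewhere in the RGS family, 8 of 11 further genes were tested, and in the mean response Rgs3 rose while no other passed. Rgs3, an R4 member that acts on Gi and Gq alpha, averaged 18.7 ± 2.71 CPM in knockin Dex and 15.0 ± 1.98 CPM in knockin PBS, and 17.4 ± 3.10 CPM in wild-type Dex and 13.5 ± 0.690 CPM in wild-type PBS libraries. Its mean response was 0.33 log2 (SE 0.08, edgeR adjusted p = 0.00603), and it did not pass in knockin (adjusted p = 0.11) or wild-type mice (adjusted p = 0.065) alone. Of the 5 genes whose products partner the R7 subfamily, Gnb5 among them, 0 passed by edgeR, DESeq2 or limma-voom, and 2 were at unadjusted p below 0.05. Of 7 other genes listed as modulators of G proteins, 1 rose and 1 fell. Gpsm2, which binds Gi alpha in its GDP-bound form and orients the mitotic spindle, averaged 20.6 ± 2.39 CPM in knockin Dex and 14.8 ± 2.29 CPM in knockin PBS, and 21.3 ± 3.91 CPM in wild-type Dex and 14.0 ± 1.35 CPM in wild-type PBS libraries (0.54 log2, SE 0.08, edgeR adjusted p = 5.7e-05).

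Among 13 G alpha subunit genes, 1 rose and 4 fell in the mean response. Gnai2, a Gi subunit, averaged 149 ± 4.60 CPM in knockin Dex and 176 ± 6.56 CPM in knockin PBS, and 156 ± 6.94 CPM in wild-type Dex and 175 ± 7.91 CPM in wild-type PBS libraries (-0.20 log2, SE 0.03, edgeR adjusted p = 2.08e-06). Gna12 averaged 92.9 ± 5.07 CPM in knockin Dex and 117 ± 7.88 CPM in knockin PBS, and 95.9 ± 5.79 CPM in wild-type Dex and 118 ± 4.14 CPM in wild-type PBS libraries (-0.32 log2, SE 0.03, adjusted p = 3.82e-08). Among 14 G beta and gamma genes 2 rose and 3 fell, with Gng11 at 4.58 ± 0.825 CPM in knockin Dex and 8.23 ± 0.774 CPM in knockin PBS, and 4.49 ± 0.687 CPM in wild-type Dex and 8.65 ± 1.24 CPM in wild-type PBS libraries (-0.89 log2, SE 0.09, edgeR adjusted p = 1.11e-08). Of 7 receptor kinase and arrestin genes 1 rose, the kinase Grk3 at 0.20 log2 (SE 0.03, edgeR adjusted p = 3.99e-06). Of 17 effector genes 5 rose and 4 fell, among them the phospholipase C gene Plcb4 at 0.33 log2 and the adenylyl cyclase gene Adcy8 at -0.52 log2.

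Of 28 Gi- and Go-coupled receptor genes 2 rose and 4 fell, and of 17 Gq-coupled receptor genes 2 rose and 2 fell. The glutamate receptor gene Grm3 averaged 44.0 ± 1.72 CPM in knockin Dex and 60.9 ± 4.73 CPM in knockin PBS, and 43.9 ± 2.05 CPM in wild-type Dex and 57.2 ± 5.14 CPM in wild-type PBS libraries (-0.43 log2, SE 0.04, edgeR adjusted p = 4.43e-09). The microglial receptor genes Cx3cr1 and P2ry12 fell by 0.67 and 0.64 on the log2 scale. Both are also among the 10 microglial markers described below, of which 3 rose and 4 fell. The endothelin receptor genes Ednra and Ednrb fell by 0.82 and 0.72 on the log2 scale. Chrm5, a muscarinic receptor gene, rose in the mean response (1.49 log2, SE 0.22, edgeR adjusted p = 3.98e-05). The list counts are a description, to be read beside the 18.2% of all genes called. Their median log2 fold changes ran from -0.061 for the further RGS genes to 0.071 for the R7 partners, against -0.00039 over all genes. All 10 receptor-induced genes listed rose in both genotypes, where 5.28% of all genes were called higher in knockin and 5.27% in wild-type mice. That list was written with earlier results of these data known, so its count is not an independent check. Plin4, a lipid droplet gene on it, averaged 58.7 ± 6.13 CPM in knockin Dex and 1.21 ± 0.388 CPM in knockin PBS, and 55.4 ± 13.2 CPM in wild-type Dex and 1.33 ± 0.366 CPM in wild-type PBS libraries.

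**Figure D5:**
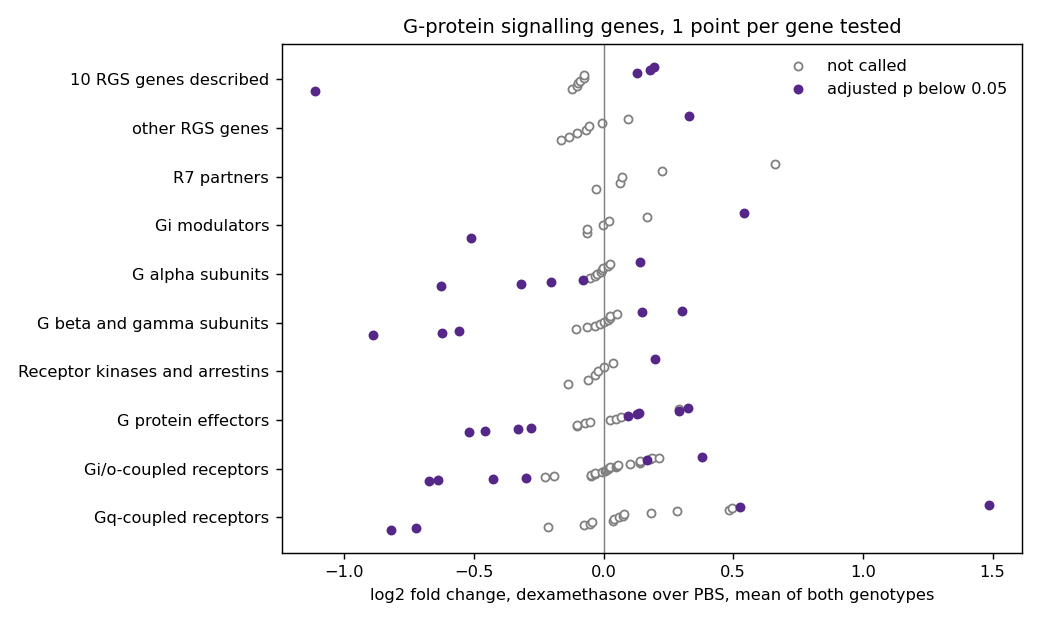
Log2 fold change of Dex over PBS, averaged over both genotypes, for each gene tested in the 10 RGS genes and 9 lists of related genes. Each point is 1 gene, filled where it passed the test. Rgs20 at -1.11 is the lowest point shown and Chrm5 at 1.49 the highest.

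Some markers of many, but not all, cell classes were also called in the mean response to Dex. None passed for CA1 (0 of 5 tested) or for CA2 and CA3 (0 of 8). The same held for choroid plexus (0 of 8), liver (0 of 10) and red blood cells (0 of 6). Of 10 microglial markers 3 rose and 4 fell in the mean response, none was at 0 in any library, and their summed level was 428 to 449 CPM in knockin Dex against 468 to 517 CPM in knockin PBS, and 431 to 482 CPM in wild-type Dex against 469 to 543 CPM in wild-type PBS libraries. Of 7 oligodendrocyte precursor markers 5 rose, none was at 0, and they summed to 348 to 382 CPM in knockin Dex against 302 to 352 CPM in knockin PBS, and 321 to 395 CPM in wild-type Dex against 309 to 354 CPM in wild-type PBS libraries. Of 10 oligodendrocyte markers 1 rose and 5 fell, none was at 0, and the sums ran from 4794 to 5735 CPM in knockin Dex against 4854 to 6633 CPM in knockin PBS, and from 3814 to 5556 CPM in wild-type Dex against 5011 to 5542 CPM in wild-type PBS libraries. Of 7 neutrophil markers 2 were tested and 1 fell, and the 7 summed to 3.96 to 6.01 CPM in knockin Dex against 6.42 to 14.1 CPM in knockin PBS, and 4.02 to 5.76 CPM in wild-type Dex against 6.21 to 8.03 CPM in wild-type PBS libraries, with Cxcr2, Mmp8, Retnlg, Ly6g and S100a8 at 0 in some libraries. Neutrophil sums separated Dex from PBS in both genotypes, as did the microglial sums in knockin mice. Only Csf3r (at least 49 read pairs) and S100a9 (at least 2 read pairs) of the neutrophil markers were present in every library. Of 8 dentate granule markers 1 rose and 3 fell by edgeR, where DESeq2 called 6, and they summed to 529 to 643 CPM in knockin Dex against 539 to 681 CPM in knockin PBS, and 533 to 612 CPM in wild-type Dex against 550 to 678 CPM in wild-type PBS libraries. Of 8 endothelial markers 1 rose and 3 fell, with sums of 248 to 278 CPM in knockin Dex against 252 to 300 CPM in knockin PBS, and 247 to 292 CPM in wild-type Dex against 277 to 302 CPM in wild-type PBS libraries. Of 10 mural and meningeal markers 1 rose and 2 fell, with sums of 169 to 220 CPM in knockin Dex against 200 to 272 CPM in knockin PBS, and 169 to 300 CPM in wild-type Dex against 230 to 294 CPM in wild-type PBS libraries. Of 9 astrocyte markers 2 rose and 2 fell, with sums of 6867 to 7604 CPM in knockin Dex against 6810 to 7364 CPM in knockin PBS, and 6774 to 7014 CPM in wild-type Dex against 6787 to 7191 CPM in wild-type PBS libraries. For these 4 lists the Dex and PBS sums overlapped in both genotypes, and no marker was at 0 in any library. Of 8 interneuron markers 1 rose, of 11 thalamic and habenular markers tested 2 rose, and of 8 striatal markers tested 1 rose and 1 fell. The part of these markers in the changes of Rgs20, Rgs12, Rgs17 and Rgs8 was not tested.

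Within groups, libraries differed in ways that some of the genes shared. With group means removed, Pearson's r over the 20 libraries was 0.77 between Rgs4 and Rgs7 and -0.77 between Rgs2 and Rgs12, the highest and lowest of the 45 pairs, as a description of libraries that also share dissection and depth. Knockin PBS replicate 4 was the lowest of its group for Rgs4, Rgs7 and Rgs12 and the highest for Rgs2. Its part in these r values was not tested. Among 12688 genes compared in the same way, the closest to Rgs20 were Gpr61 (r = 0.80), Tspan14 (0.76) and Atxn7l2 (0.75). The closest to Rgs12 were Parp11 (0.84), Rac3 (0.81) and Maged2 (0.80), and to Rgs17 Bmpr1a (0.87), Tceal8 (0.83) and Srpk2 (0.80). For Rgs8 the closest were Mvb12b (0.93), Kcnh1 (0.92) and Prdm8 (0.86). For each RGS gene these are the highest r among the 12688 genes compared, and no test was run on them.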

How the data were processed

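Poly(A) RNA was sequenced from 20 hippocampi, which the labels call biological replicates, read here as 1 mouse each. The deposited files hold raw counts per gene in units of read pairs, which the authors made with featureCounts 2.0.6 without a strand option, per the file headers. The submitters' processing notes name STAR 2.5.1, Subread 1.5.1, DESeq2 1.38.3 and mm39. The exon lengths used for levels per kilobase are those of the deposited files. Gene names came from a GRCm38 table and coordinates from the files.

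Genes were filtered with filterByExpr (minimum count 10, minimum total 15) and tested with edgeR 4.0.16 in R 4.3.3: TMM scaling, a robust quasi-likelihood fit to all 20 libraries, 1 term per group, and Benjamini-Hochberg adjustment over 18648 genes, called at adjusted p below 0.05. Comparisons were Dex against PBS in each genotype, their mean, the genotypes within PBS and within Dex, and the genotype difference of the Dex response. Depth was 11493014 to 48267708 read pairs, and counting error is part of the spread between mice. Libraries within groups differed by more than counting noise (chi-square per gene 2.51 to 12.6 over 40 pairs). Alternatives were DESeq2 1.42.0, limma-voom (limma 3.58.1), 2 other filters, the compared libraries alone, a replicate block, and leaving out libraries. The genes, lists and tests were chosen with earlier results of these data known. All 10 genes are named in each Dex comparison and the largest in the others; up to 3 called genes are named per list, with Gnaz and Atp6v1h chosen after their values were seen. Promoter windows are from RefSeq, GRCm38.p6.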

Additional observations from a re-analysis of the deposited data

Results flagged for a closer look

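Rgs12 in knockin PBS replicate 4 stood apart from the other 4 libraries of its group. It had 33.5 CPM there, with the nearest library at 38.3 CPM and the highest at 40.2 CPM. Its gap to the nearest library made up 0.720 of the group's range, above Dixon's limit for 5 libraries. Over 40 checks of a gene in a group, chance alone would flag about 1 in 20. Without this library the knockin response of Rgs12 was 0.11 log2 (edgeR adjusted p = 0.0816) and no longer passed.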

How the results depend on the processing

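The fall of Rgs20 passed the test in both genotypes under every alternative run, and the mean responses of Rgs12, Rgs17 and Rgs8 passed under every alternative run. Over the values of single RGS genes, 895 kept direction and side of the threshold, 14 lost and 10 gained a call, and 23 changed sign. The cause was not tested. For the comparisons between genotypes only some of the 10 genes entered this tally. Values far from the threshold could hardly change side, so the tally is a description and not a measure of robustness. Leaving out 1 library gave 1 to 2 of the 10 genes called in knockin mice, 2 to 4 in wild-type mice and 4 to 7 in the mean response. It gave 1501 to 1955, 1288 to 1692 and 2966 to 3480 genes called over the whole table. In a fit of the Dex libraries alone, 1 gene of the table, none of the 10, differed between knockin and wild-type.

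Estimates near 0 changed sign. Leaving out 1 library moved the knockin response of Rgs2 between -0.062 and 0.011 log2, and that of Rgs16 between -0.24 and 0.019. The wild-type response of Rgs16 moved between -0.085 and 0.084 and its mean response between -0.12 and 0.0027. The genotype difference of Rgs20 under Dex moved between -0.062 and 0.046. The differences of Dex responses moved between -0.055 and 0.051 for Rgs8, -0.22 and 0.032 for Rgs16 and -0.054 and 0.028 for Rgs17. Without the libraries high in liver transcripts the wild-type response of Rgs16 was 0.016 and the response difference of Rgs8 was 0.040. With no low-count filter that of Rgs8 was 0.0014, and without the libraries high in Ttr that of Rgs20 was 0.0023.

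Same-numbered libraries did not clearly deviate together. Their r was -0.11 to 0.25 over 30 pairs, with a median of 0.015 against -0.0055 for different numbers. For 6 of 20 libraries the mean r was highest with the libraries of their own number. These values give no sign that the numbers pair the mice, but they cannot show that the mice were not paired. With the replicate block 3 of the 10 genes were called in knockin, 3 in wild-type and 4 in the mean response, and 1843, 1643 and 3367 genes of the table. Rgs17 then passed in knockin mice (adjusted p = 0.0493), as it did in a fit of the knockin libraries alone (adjusted p = 0.0497). Depth limits Rgs16 most, at 55 read pairs in its lowest library.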
